A study of Mus musculus with 24 samples.

Results

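Most microRNAs (miRNAs) are cut from a folded primary transcript by the nuclear enzyme Drosha and then trimmed by Dicer. A few reach Dicer without Drosha. The precursors of miR-320 and miR-484 are made directly by RNA polymerase II and leave the nucleus with the cap that marks the first base of a transcript. Mirtrons such as miR-877 and miR-1224 are short introns that are spliced out, debranched and folded into a hairpin whose ends are the splice sites. The 7 mouse miRNAs of these 4 precursors that the array carries were followed across all 8 groups of liver RNA: mmu-miR-320-3p, mmu-miR-320-5p, mmu-miR-484, mmu-miR-877-5p, mmu-miR-877-3p, mmu-miR-1224-5p and mmu-miR-1224-3p. They were picked by name among 1881 miRNAs on the array.

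Livers of 3 male mice, numbered 7, 10 and 9, gave 1 array each in every group, 24 arrays in all. The methods name C57BL6 mice of an Il1a knock-out strain for the animals of the storage time course and do not repeat the strain for these livers, and no age is given. RNA including small RNAs was isolated with the miRNeasy kit from tissue kept for 0 h or left at room temperature for 96 h, and the column was treated with DNase or not. A preparation poor in small RNAs, called depleted here, was isolated with the RNeasy kit and DNase from unstored tissue, and was hybridized untreated or after incubation with 0 U, 0.026 U or 0.67 U RNase and a second isolation with the miRNeasy kit. Depleted RNA still holds some small RNA. The question behind the design was how far broken RNA or leftover DNA gives signals at miRNA probes.

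The RNA integrity number (RIN), which falls as RNA breaks, lay between 8.8 and 9.0 at 0 h, between 2.3 and 2.5 at 96 h, between 9.0 and 9.4 in untreated and 0 U depleted RNA, between 6.0 and 7.0 at 0.026 U and between 2.4 and 2.9 at 0.67 U. Summed signal of the detected miRNAs spanned 55237 to 163493 intensity units at 0 h, 187378 to 362324 at 96 h, 7125 to 10043 in depleted RNA without RNase and 36325 to 177642 with RNase. The hepatocyte miRNAs miR-122-5p, miR-192-5p and miR-194-5p were detected in every group, with a summed signal of 7655 to 13355 at 0 h and 3546 to 6741 at 96 h with DNase. Summed signals of 3 blood markers ran from 224 to 429 at 0 h and from 182 to 236 at 96 h with DNase, and from 2.65 to 9.22 in untreated depleted RNA. Summed signals of 3 leukocyte markers ran from 41.4 to 109 at 0 h and from 10.4 to 26.1 at 96 h with DNase. Of 4 muscle markers, miR-133a-3p alone was detected, and at 96 h alone, where the summed signal reached 14.2 with DNase and 13.7 without. All 3 neuronal markers were undetected on every array. The part of these markers in the results was not tested. Slide, scan and animal coincide, each mouse filling 1 slide with its 8 arrays, and cannot be told apart. For mouse 9 the titles and the descriptions of the RNase arrays name opposite doses. The descriptions were followed, since the RIN values of 2.4 and 6.0 fit them, while the summed signal of mouse 9 was larger at the described 0.026 U, 177642 against 70313, and that of mice 7 and 10 was larger at 0.67 U. Values at each single dose therefore rest on an uncertain label, and both doses together do not.

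The sequences are shown first because the arms of 1 hairpin behaved differently on the arrays. RefSeq (GRCm38.p6) held 5 of the 7 members. Mature sequences are written 5′ to 3′ with the seed, bases 2 to 8, in capitals.
mmu-miR-484, chr16:14159630-14159651, plus strand: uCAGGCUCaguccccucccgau
mmu-miR-877-5p, chr17:35960795-35960814, minus strand: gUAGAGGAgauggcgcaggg
mmu-miR-877-3p, chr17:35960731-35960752, minus strand: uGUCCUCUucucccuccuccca
mmu-miR-1224-5p, chr16:20604452-20604472, plus strand: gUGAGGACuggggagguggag
mmu-miR-1224-3p, chr16:20604516-20604536, plus strand: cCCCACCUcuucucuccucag

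No other miRNA of the array with a RefSeq sequence shared any of these 5 seeds, among 1608 matched. The 5p arms of both mirtrons were rich in guanine, 55.0% in miR-877-5p and 61.9% in miR-1224-5p, against a median of 26.3% over the matched miRNAs. Their 3p arms were almost free of purines, 9.09% in miR-877-3p and 14.3% in miR-1224-3p, against a median of 50%. Only 0.0622% of matched miRNAs had fewer purines than miR-877-3p, and 99.3% had less guanine than miR-1224-5p. The capped miR-484 had 18.2% guanine.

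The hairpins, with the mature arms in capitals, show the splice-site ends of the mirtrons.
Mir877, chr17:35960730-35960814, minus strand: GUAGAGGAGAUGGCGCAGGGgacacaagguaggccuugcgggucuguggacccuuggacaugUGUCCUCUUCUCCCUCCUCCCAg
Mir1224, chr16:20604452-20604536, plus strand: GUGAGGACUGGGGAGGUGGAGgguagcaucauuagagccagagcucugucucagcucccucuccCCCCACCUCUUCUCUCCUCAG
Mir484, chr16:14159626-14159692, plus strand: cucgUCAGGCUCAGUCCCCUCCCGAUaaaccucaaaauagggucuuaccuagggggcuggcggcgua

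Both mirtron hairpins are 85 bases long, begin with GU and end with AG, as 30 of 1005 RefSeq hairpins (2.99%) do. The 5p arm starts at base 1 of the hairpin in both, and miR-1224-3p ends at its last base. Mir484 is 67 bases long, and its mature miRNA starts at base 5. In the same annotation Mir877 lies within Abcf1, which encodes a translation factor of the ATP-binding cassette family, and Mir1224 within Vwa5b2, which encodes a protein with a von Willebrand factor domain. The coding gene nearest to Mir320 is Polr3d, a subunit of RNA polymerase III, and that nearest to Mir484 is Marf1, a regulator of mRNA stability in oocytes.

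Only 2 of the 7 members were detected on every array. These were miR-877-3p and miR-1224-5p, on 24 of 24. miR-484 was detected on 12 arrays, miR-320-3p on 11 and miR-877-5p on 10. The passenger arms miR-320-5p and miR-1224-3p were detected on 0 of 24, with highest signals of 0.52 and 2.42 intensity units. Those 5 that were detected on at least 5 arrays were tested among 631 such miRNAs. miR-877-5p was detected on 6 arrays at 96 h and on 4 with RNase, so it entered the test only through groups in which it was high. The relative error of a detected signal, as given by the scanner software, was 7.20% to 7.56% for miR-1224-5p and reached 32.9% for miR-877-5p, and no spot of any member was saturated.

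**Figure D1:**
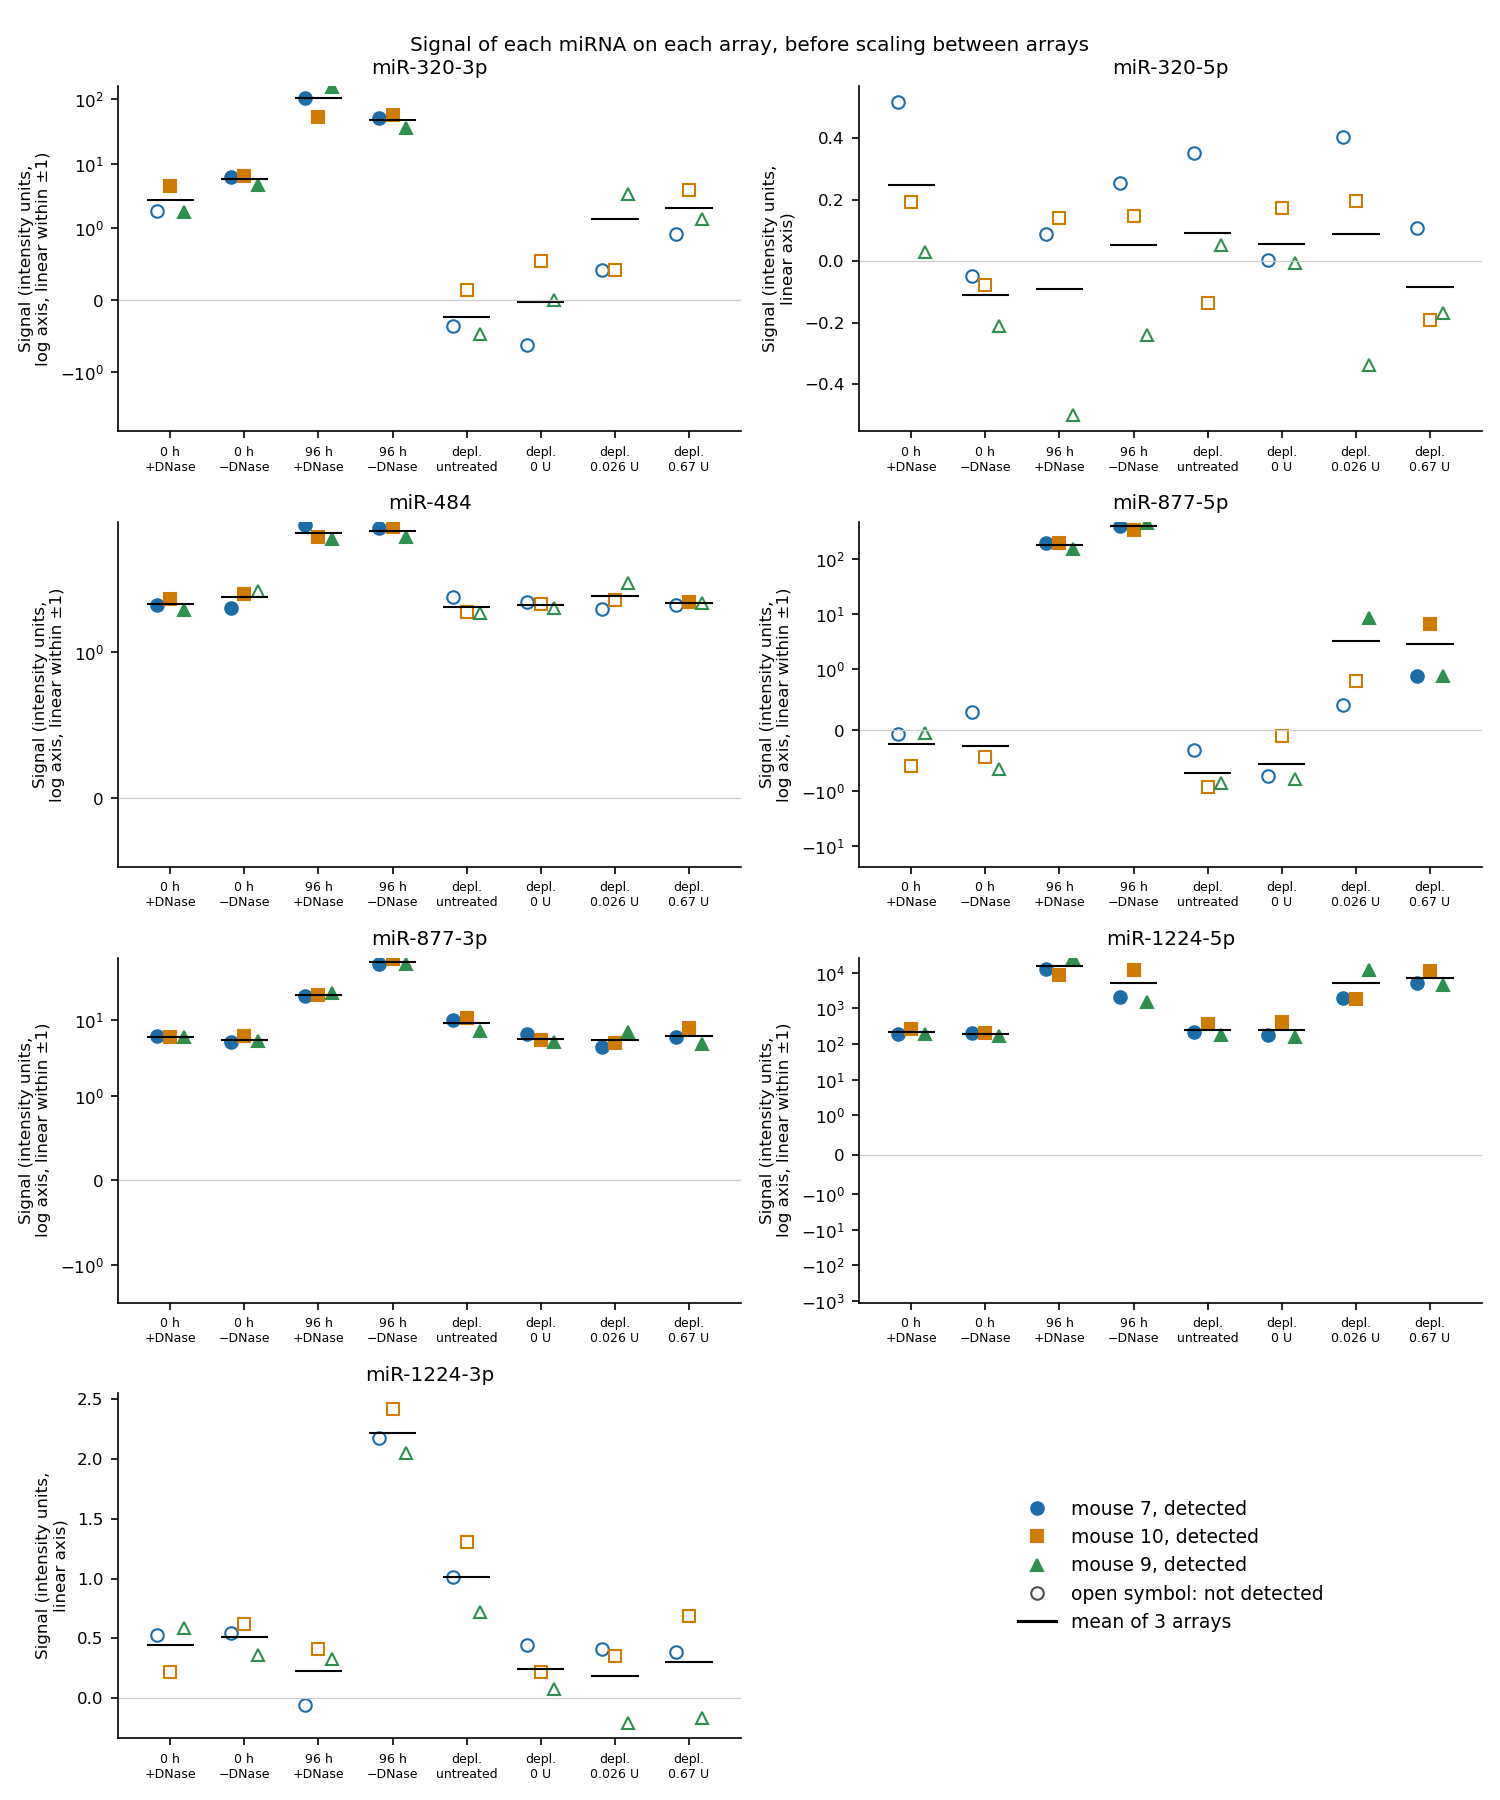
Signal of the 7 miRNAs on each of 24 arrays, in intensity units before scaling between arrays (log axis that is linear within 1 unit of 0, or linear where stated), by group; colours and shapes mark the 3 mice, open symbols undetected values and black lines the mean of 3 arrays. miR-1224-5p lies between 160 and 401 in intact RNA and at 1470 or more in all stored and RNase-treated RNA, while miR-320-5p stays between -0.5 and 0.52.

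Changes below are differences of group means after variance stabilizing normalization, on a scale called glog2 that equals log2 for bright signals, with their standard errors (SE) from limma and Benjamini-Hochberg adjusted p over 631 miRNAs. A miRNA was called when the adjusted p was under 0.05 and the change at least 1. Each group had 3 arrays. With tissue storage the median of all 631 miRNAs itself rose by 2.47 with DNase and by 2.16 without, so a rise of a member is set beside that median.

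Storage for 96 h raised miR-320-3p, miR-877-5p and miR-1224-5p in DNase-treated RNA and left no member called lower. The same comparison called 60.4% of the tested miRNAs higher and 21.6% lower, so 3 of 5 members is near the background. Without DNase, 4 of 5 members were called higher, the 4th being miR-877-3p, against 60.5% of all tested miRNAs higher and 23.0% lower. miR-484 was called in neither.

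The mirtron arm miR-877-5p went from undetected to bright. At 0 h with DNase it measured -0.063, -0.59 and -0.042 intensity units in mice 7, 10 and 9, undetected in all 3. At 96 h it measured 196.5, 198.9 and 155.9. The groups lay far apart and the mice were close to each other. Without DNase it was again undetected at 0 h, at 0.30, -0.44 and -0.63, and reached 401, 339 and 460 at 96 h. Measured against the lowest detected signal of each 0 h array, the scaled signal was at least 61.3-fold higher with DNase and at least 146-fold higher without, in 3 of 3 mice each time. The fitted glog2 changes were 6.80 (SE 0.79, limma adjusted p = 1.36e-07) and 8.21 (SE 0.79, limma adjusted p = 1.37e-08). They start from signals below background and so have no firm size, and since the stored arrays brought miR-877-5p into the test, these p-values are no independent support for its rise.

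The other arm of the same hairpin, miR-877-3p, did not follow it. It already gave a detected signal in fresh liver, at 6.17, 5.92 and 6.04 intensity units in mice 7, 10 and 9 with DNase and 5.08, 6.20 and 5.29 without. At 96 h with DNase it measured 20.6, 21.1 and 22.6, and without DNase 54.1, 63.2 and 54.6. Both 96 h groups lay above both 0 h groups before scaling. After scaling, the glog2 change with DNase was -0.06 (SE 0.19, 95% CI -0.46 to 0.34, limma adjusted p = 0.765), and without DNase it was 1.54 (SE 0.19, limma adjusted p = 3.9e-07). The per-mouse changes with DNase were -0.23, 0.38 and -0.33. With DNase the miR-877-3p change depends on how arrays are scaled, from -1.88 with the normalization fitted on the 631 miRNAs to 1.68 with no scaling.

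miR-1224-5p rose from a clear signal in fresh liver. At 0 h with DNase it measured 189, 261 and 190 intensity units in mice 7, 10 and 9, and at 96 h 12745.5, 8862 and 25600. Without DNase it measured 202, 204 and 164 at 0 h and 2145, 11622 and 1470 at 96 h. No 96 h array came near a 0 h array, but without DNase the stored mouse 10 stood apart from the others. The glog2 change was 4.25 (SE 0.60, limma adjusted p = 1.67e-06) with DNase and 2.45 (SE 0.60, limma adjusted p = 0.000818) without. These are 19.1-fold and 5.48-fold on the scaled signals, in 3 of 3 mice. Its share of the summed detected signal was 0.262% ± 0.0716 before and 5.56% ± 1.35 after storage with DNase (both SD, n = 3). Without DNase the rise was close to the median miRNA, with 51.8% of miRNAs changing by less.

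The capped miR-320-3p was weak in fresh liver, at 1.86, 4.46 and 1.80 intensity units with DNase, of which mouse 7 was undetected. The 1.80 of mouse 9 is the signal of a single probe, while the other values sum both. miR-320-3p was detected on all 3 arrays without DNase, at 6.19, 6.40 and 4.71. At 96 h it measured 105, 52.3 and 151 with DNase and 50.5, 56.2 and 35.1 without. The groups of each DNase state did not overlap. Fitted singly, its probes rose by 2.77 and 2.94 with DNase, both called. The glog2 change of miR-320-3p itself was 3.10 (SE 0.47, limma adjusted p = 4.59e-06) with DNase and 1.20 (SE 0.47, limma adjusted p = 0.0238) without. The first was slightly above the median miRNA and the second below it, with 56.3% and 39.9% of miRNAs changing by less. The rise without DNase changed sign under 4 of 17 alternatives and lost its call under 3 more, among them the fits without mouse 7 (1.18, limma adjusted p = 0.0811) and without mouse 9 (1.22, limma adjusted p = 0.102).

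The capped miR-484 was weak in fresh liver and detected on all 6 stored arrays. It measured 2.31, 2.56 and 2.09 intensity units at 0 h with DNase and 9.41, 7.55 and 7.35 at 96 h. These 0 h values are those of a single probe and the 96 h values sum both. By probe, the means rose from 1.36 to 4.14 and from 2.32 to 3.97, and neither probe overlapped between the groups before scaling. Without DNase miR-484 measured 2.18, 2.80 and 2.93 at 0 h and 8.78, 9.01 and 7.53 at 96 h. At 0 h mouse 9 was undetected there, and its value alone sums both probes. The glog2 change was -0.16 (SE 0.22, 95% CI -0.63 to 0.31, limma adjusted p = 0.516) with DNase and -0.16 (SE 0.22, 95% CI -0.63 to 0.31, limma adjusted p = 0.519) without. Fitted singly, its probes changed by -1.02 and -0.31 with DNase, 1 of them called lower, and by -0.76 and -0.16 without. The fitted direction of miR-484 changed with the scaling, on the same unlike signals. With DNase it was called higher by 1.47 with no scaling and by 1.08 with spike-in scaling. It was called lower by -1.91 with quantile normalization and by -2.01 with the normalization fitted on the 631 miRNAs. Its place among the 631 moved little, with 26.1% to 27.9% of miRNAs changing by less over 16 settings. The corresponding range was 64.8% to 99.2% for miR-1224-5p.

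**Figure D2:**
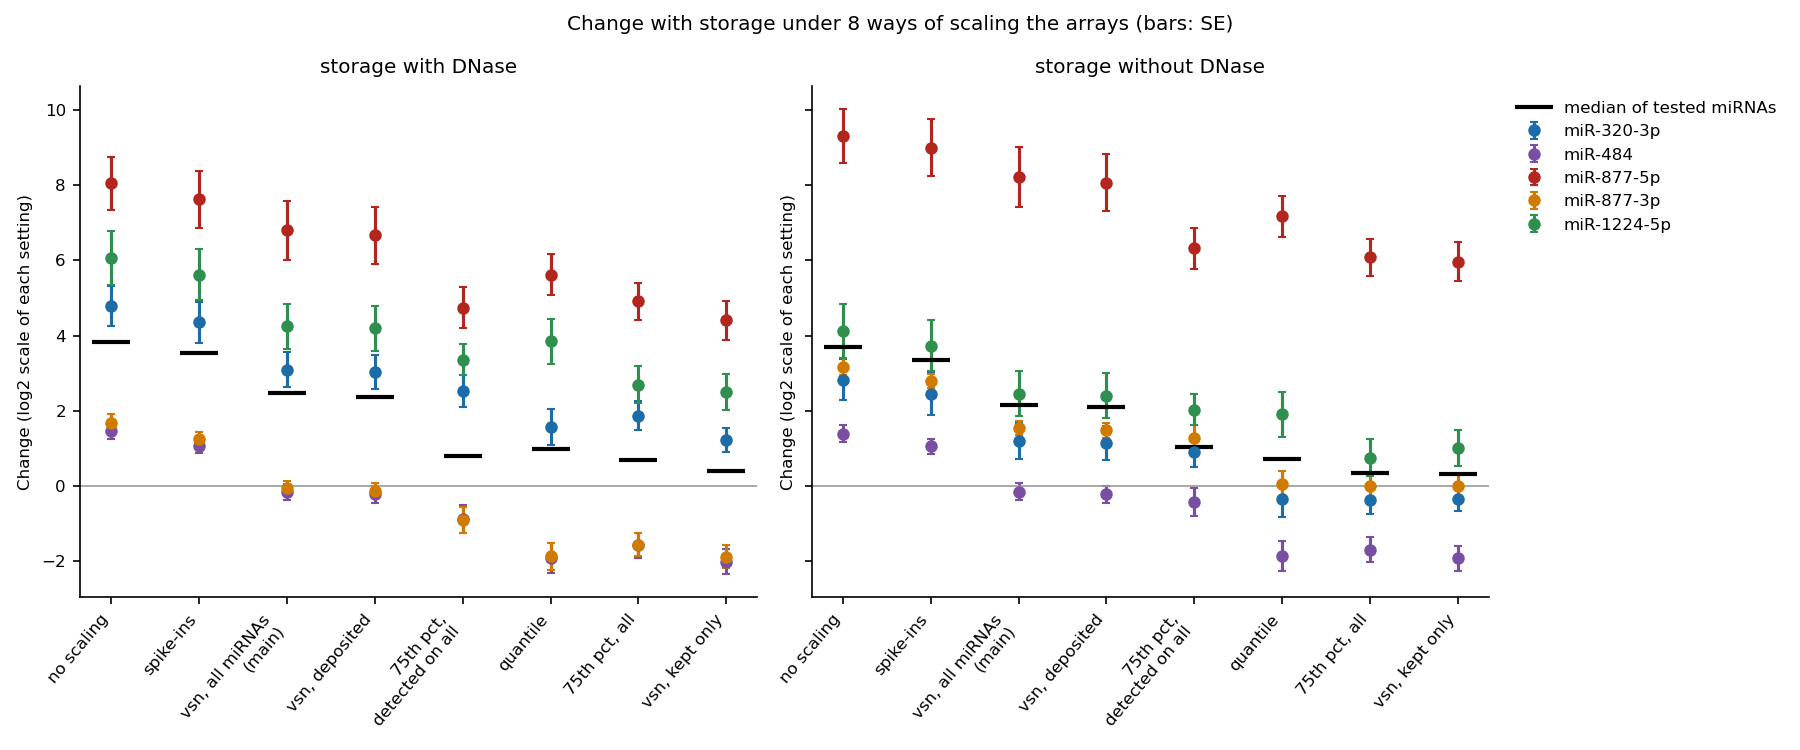
Change with storage of the 5 tested miRNAs (points, bars are SE) and the median of 631 miRNAs (black bars) under 8 ways of scaling the arrays, on the log2 scale of each, with DNase on the left and without on the right. miR-877-5p and miR-1224-5p stay above 0 throughout, while miR-484 runs from 1.47 with no scaling to -2.01 with the normalization fitted on the 631 miRNAs, in the left panel. The 0 h signal of miR-484 there is that of a single probe, and its 96 h signal sums both. miR-877-5p was undetected at 0 h and entered the test only through groups in which it was high, so its height has no firm value.

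Leaving out DNase tests whether leftover DNA adds signal. At 0 h no member was called, and 0% of tested miRNAs were called in either direction. At an unadjusted p under 0.05, only miR-320-3p passed among the members, with a glog2 change of 1.03 (SE 0.47, limma adjusted p = 0.922). This change includes the single-probe value of mouse 9 with DNase, and its probes fitted singly changed by 0.74 and 0.82. At 96 h, 6.18% of tested miRNAs were called higher without DNase and 4.60% lower. miR-877-3p was among the first, with 54.1, 63.2 and 54.6 intensity units without DNase against 20.6, 21.1 and 22.6 with it, a change of 1.49 (SE 0.19, limma adjusted p = 6.66e-05, 3 of 3 mice). The groups were tight and well separated, and the scaled signals differed 2.92-fold. Without mouse 7 the change was 1.45 and no longer called (limma adjusted p = 0.0517).

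miR-1224-5p was among the lower ones, by -1.97 (SE 0.60, limma adjusted p = 0.0375). Mice 7 and 9 changed by -2.33 and -3.53 and mouse 10 by -0.05, so the difference rests on 2 of the 3 mice. It was not called without mouse 7 (-1.79, limma adjusted p = 0.56) or without mouse 9 (-1.19, limma adjusted p = 0.711). miR-877-5p was higher without DNase in 3 of 3 mice, by 1.24, but this was not called (SE 0.79, limma adjusted p = 0.367), and miR-320-3p was lower in 3 of 3 by -0.87 (SE 0.47, limma adjusted p = 0.298). miR-484 differed by 0.17 (SE 0.22, limma adjusted p = 0.654). The undetected miR-1224-3p measured 2.05 to 2.42 intensity units on all 3 stored arrays without DNase and at most 0.415 on those with it.

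The difference between the storage changes without and with DNase was tested as an interaction, which called 0.951% of miRNAs higher and 0.158% lower. miR-877-3p was among the higher, at 1.60 (SE 0.27, limma adjusted p = 0.00307), and was the sole member called. It was not called without mouse 7 (1.50, limma adjusted p = 0.944) or without mouse 9 (1.42, limma adjusted p = 0.196), and in both of these fits 0 of 631 miRNAs were called. The interaction was -1.90 (SE 0.67, limma adjusted p = 0.173) for miR-320-3p, -1.80 (SE 0.85, limma adjusted p = 0.355) for miR-1224-5p, 1.41 (SE 1.12, limma adjusted p = 0.628) for miR-877-5p and 0.0032 (SE 0.32, limma adjusted p = 0.996) for miR-484. For the single probes of miR-320-3p it was -1.74 and -1.57, and for those of miR-484 0.15 and 0.25, none called.

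**Figure D3:**
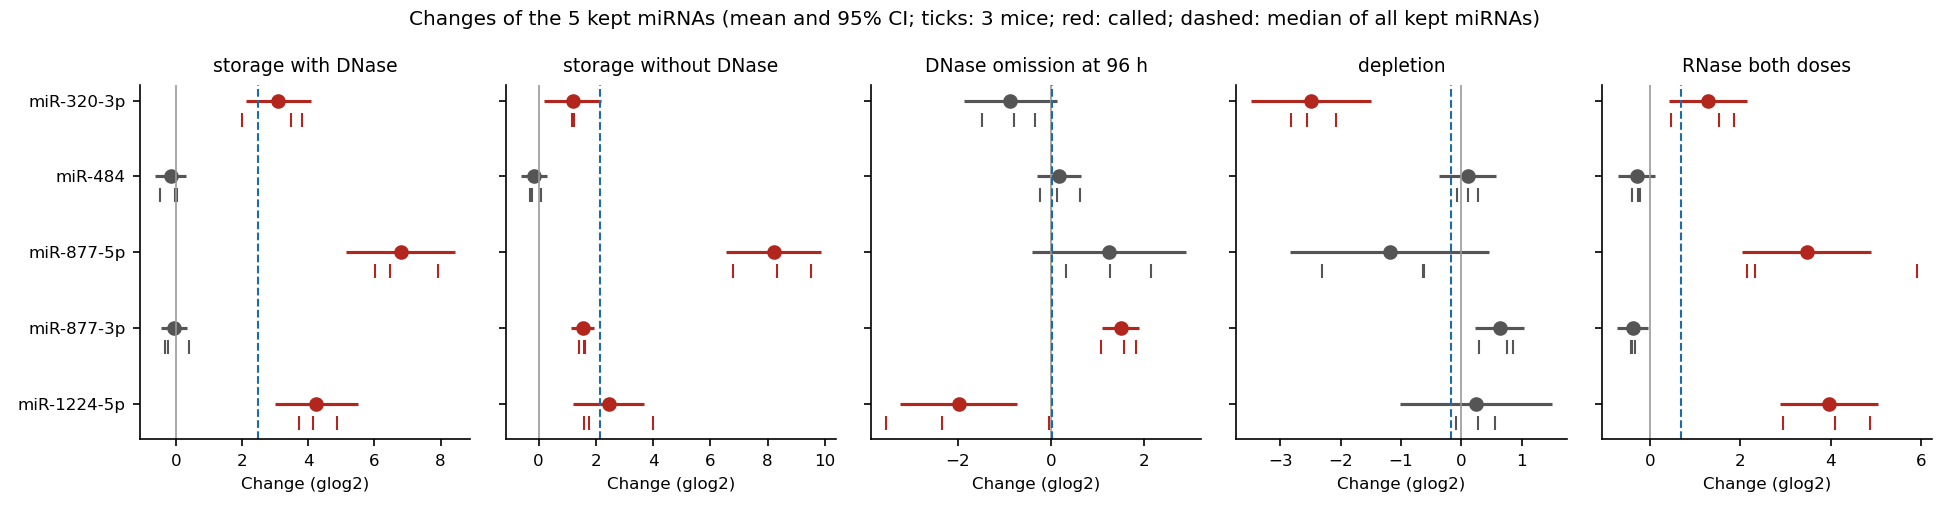
Change of the 5 tested miRNAs in 5 comparisons on the glog2 scale (points and 95% confidence intervals), with the changes of the 3 mice as ticks, called miRNAs in red and the median of 631 miRNAs as a dashed line. With storage the median stands at 2.47 and 2.16, and miR-877-5p lies far to its right in both. miR-877-5p was undetected at 0 h, so this distance has no firm size.

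Depletion of small RNAs asks which signals do not need them. The fit called miR-320-3p lower and no other member, against 24.4% of tested miRNAs lower and 5.39% higher. miR-320-3p was undetected on all 12 depleted arrays, at -0.36, 0.14 and -0.47 intensity units in untreated depleted RNA, a change of -2.49 (SE 0.47, limma adjusted p = 0.000223). Its scaled signal at 0 h, detected in 2 of 3 mice, was at least 2.28-fold higher. miR-1224-5p was not called, at 211, 359 and 176 intensity units against 189, 261 and 190 with small RNAs, a change of 0.24 (SE 0.60, 95% CI -1.01 to 1.49, limma adjusted p = 0.861). Under 3 other scalings it was called higher, by up to 2.80 with quantile normalization. Its share of the summed signal was 2.75% ± 0.864 (SD, n = 3). miR-877-3p measured 9.95, 10.5 and 7.14 intensity units after depletion, higher in 3 of 3 mice by 0.63 (SE 0.19, limma adjusted p = 0.0144), which is under the size required of a call and was called under 3 other scalings. miR-484 was undetected in untreated depleted RNA, at 2.66, 2.01 and 1.997 units summed over both probes. Its 0 h signal with DNase is that of a single probe, so its fitted change of 0.11 (SE 0.22, limma adjusted p = 0.831) compares unlike signals. Before scaling neither probe overlapped between the groups. One ran from 1.23 to 1.58 at 0 h with DNase and from 0.69 to 1.09 in untreated depleted RNA, the other from 2.09 to 2.56 and from 1.22 to 1.57. Fitted singly, the probes of miR-484 changed by -0.49 and -0.34, neither called, so a fall of miR-484 with depletion is left undecided. miR-877-5p was undetected in both groups.

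Incubation without enzyme (0 U) against untreated depleted RNA called 0.158% of miRNAs higher and 1.58% lower, and no member. miR-877-3p had the smallest adjusted p of the members, with a change of -0.34 (SE 0.19, limma adjusted p = 0.84). miR-1224-5p measured 175, 401 and 160 intensity units at 0 U.

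RNase at both doses together raised miR-1224-5p over 0 U. The fit called 3 of 5 members higher, where 44.7% of tested miRNAs were higher and 0% lower, but of the other two miR-877-5p was undetected at 0 U and miR-320-3p on all 9 arrays compared. miR-1224-5p measured 1938, 1809 and 11632 intensity units at 0.026 U and 5199, 11344 and 4436 at 0.67 U. Every RNase array lay above every 0 U array. The change was 3.97 (SE 0.52, limma adjusted p = 2.75e-06, 3 of 3 mice), or 15.7-fold on the scaled signals, and the median of all tested miRNAs changed by 0.69. Its share of the summed signal was 5.56% ± 0.86 at the lower dose and 6.42% ± 0.27 at the higher (both SD, n = 3).

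miR-877-5p was near the limit of detection. At 0 U it measured -0.75, -0.095 and -0.81 intensity units and was undetected. At 0.026 U it measured 0.42, 0.81 and 8.55, detected in mouse 9 alone, and at 0.67 U 0.89, 6.68 and 0.88, detected in all 3. The 0.67 U values of mice 7 and 9 are those of a single probe, while all other values here sum the 4 probes, so the doses cannot be set side by side. Fitted singly, the 4 probes rose by 2.84 to 4.58 with RNase at both doses. The glog2 change of 3.47 (SE 0.68, limma adjusted p = 0.000242) lies mostly below the detection limit, and the scaled signal with RNase was at least 1.55-fold higher. The change was 2.24 without mouse 9 (limma adjusted p = 0.0165). miR-320-3p was undetected on every array of this comparison, so its fitted difference of 1.28 (SE 0.41, limma adjusted p = 0.0134) lies between values below background and is no measured rise. It was not called without mouse 7 (0.999, limma adjusted p = 0.164) or without mouse 9 (1.16, limma adjusted p = 0.15), and its direction turned under 2 of 17 alternatives.

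The members poor in guanine did not rise. miR-877-3p measured 4.39, 4.97 and 7.03 intensity units at 0.026 U and 5.92, 7.84 and 4.78 at 0.67 U, against 6.54, 5.43 and 5.07 at 0 U, and the groups overlapped. Its change was -0.39 (SE 0.17, 95% CI -0.74 to -0.04, limma adjusted p = 0.0635), lower in 3 of 3 mice. miR-484 changed by -0.30 (SE 0.19, limma adjusted p = 0.242), where the 0.67 U value of mouse 10 is that of a single probe. Fitted singly, its probes changed by -0.28 and -0.12, neither called. Under 4 other scalings both miRNAs were called lower, miR-877-3p by up to -2.05 and miR-484 by up to -1.69 with quantile normalization.

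At 0.026 U alone 36.6% of miRNAs were called higher and 0.158% lower, among them miR-1224-5p with 3.57 (SE 0.60, limma adjusted p = 8.62e-05) and miR-877-5p with 3.48 (SE 0.79, limma adjusted p = 0.00137). At 0.67 U alone 44.8% were higher and 0.475% lower, among them miR-1224-5p with 4.36 (SE 0.60, limma adjusted p = 5.71e-06), miR-877-5p with 3.46 (SE 0.79, limma adjusted p = 0.000996) and the undetected miR-320-3p with 1.50 (SE 0.47, limma adjusted p = 0.0121). Between the doses 0% were called in either direction, no member had an unadjusted p under 0.05, and the change of miR-1224-5p was 0.79 (SE 0.60, limma adjusted p = 0.936). With mouse 9 grouped by its titles, miR-1224-5p rose by 3.34 at 0.026 U and by 4.59 at 0.67 U. miR-877-5p lost its call at 0.026 U under 6 of 17 alternatives, among them the fit without mouse 9 (1.77, limma adjusted p = 0.145). It was detected at that dose in mouse 9 alone, and its 0.67 U values of mice 7 and 9 are those of a single probe. Both of its changes start from undetected signals at 0 U and have no firm size.

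In order of mean glog2 level, miR-1224-5p ran from 12.94 ± 0.35 (SD, n = 3) at 0.67 U through 12.37 ± 0.49 at 96 h with DNase, 12.15 ± 1.14 at 0.026 U and 10.40 ± 1.40 at 96 h without DNase to 8.58 ± 0.79 at 0 U, 8.37 ± 0.46 in untreated depleted RNA, 8.12 ± 0.18 at 0 h with DNase and 7.95 ± 0.12 at 0 h without. Every neighbouring pair in this order overlapped in range. miR-877-3p was highest at 96 h without DNase, 4.57 ± 0.10 (SD, n = 3), followed by untreated depleted RNA, 3.78 ± 0.25, and 0 U, 3.44 ± 0.016, none of which overlapped the next. Its 5 lowest groups lay between 3.03 and 3.15 in the mean and overlapped in range. miR-320-3p ran from 5.15 ± 0.43 at 96 h with DNase through 4.28 ± 0.19 at 96 h without and 3.08 ± 0.15 at 0 h without to 2.05 ± 0.56 at 0 h with DNase (SD, n = 3), without overlap, and each of the 4 depleted groups overlapped its neighbour below that. miR-484 spanned only 1.82 to 2.38 in its group means, all neighbours overlapping, but these means mix signals of a single probe with sums of both.

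Each member has several probes of different length on the array, which were fitted singly. All 4 probes of miR-877-5p rose with storage, by 6.50 to 7.46 with DNase and by 7.44 to 9.20 without. The 4 probes of miR-877-3p changed by -0.09 to -0.02 with DNase and by 1.33 to 1.73 without, and all 4 were called in the latter. Both probes of miR-1224-5p rose by 4.16 and 4.40 with storage and DNase and by 3.79 and 4.28 with RNase. No probe of miR-877-3p was called with RNase. Elsewhere the probes of a member differed in their calls. For miR-320-3p, 1 of 2 probes was called with RNase, the probes changing by 0.84 and 2.51, and 1 of 2 with storage without DNase, both near 1.20. For miR-1224-5p, 1 of 2 was called lower when DNase was left out at 96 h (-2.18 and -1.85). For miR-484, 1 of 2 was called lower with storage and DNase (-1.02 and -0.31). The miRNA as a whole was not, at -0.16, but its signal there was that of a single probe at 0 h and a sum of both at 96 h. Single probes of the undetected miR-1224-3p and miR-320-5p were also called lower in that comparison, by -1.46 in the first.

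**Figure D4:**
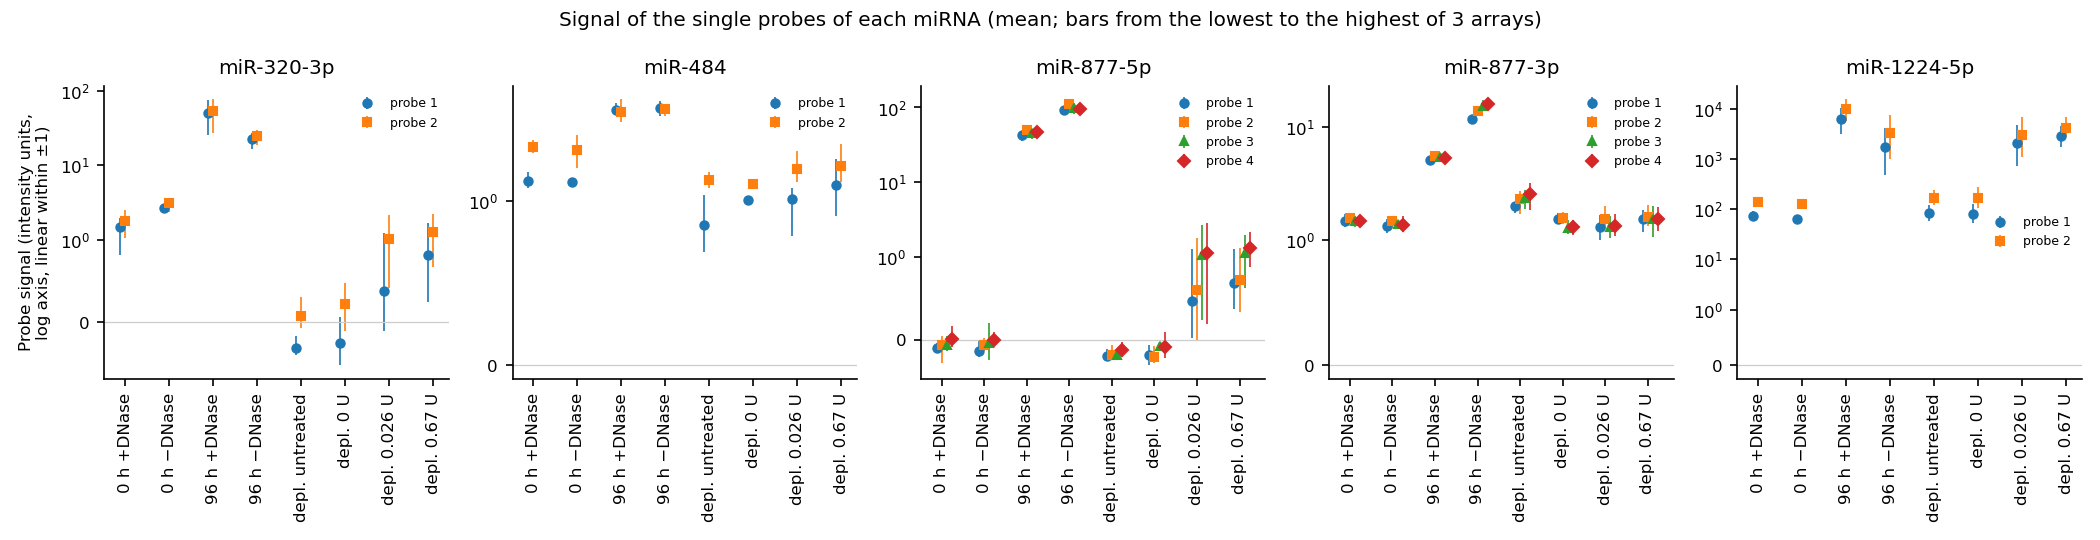
Signal of each probe of the 5 tested miRNAs in intensity units (log axis that is linear within 1 unit of 0) by group, as the mean of 3 arrays with bars from the lowest to the highest. The 4 probes of miR-877-5p move together from about 0 at 0 h, and the 4 probes of miR-877-3p are high in both 96 h groups before scaling.

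Among 526 tested miRNAs with a RefSeq sequence, those with more guanine rose more. Pearson's r between guanine content and change was 0.64 with storage and DNase and 0.63 with RNase, across miRNAs that share the same arrays and are not independent, so these are descriptions. For the share of guanine and cytosine together r was 0.56 and 0.34, and for that of purines 0.44 and 0.55. By guanine and cytosine together miR-877-3p (59.1%), miR-484 (63.6%) and miR-877-5p (65.0%) fell in 1 group of 139, of which 74.1% were called higher with storage and DNase and 56.1% with RNase, so this measure did not separate them. In the group of 112 richest in guanine, 46.2% to 77.3%, which holds miR-877-5p and miR-1224-5p, 96.4% were called higher with storage and DNase and 92.9% with RNase. In the group of 133 poorest in it, 0% to 21.7%, which holds miR-484 and miR-877-3p, 22.6% and 6.77% were. The median fitted change of the richest group was 5.57 with storage and DNase, against 4.25 for miR-1224-5p. The median of the poorest group was -0.16, which is the value of miR-484 itself, and miR-877-3p stood at -0.06. That miR-484 value sets a single-probe 0 h signal against a 96 h sum of both probes. Fitted singly, these probes changed by -1.02 and -0.31. With RNase the medians were 3.02 and -0.22, against 3.97 for miR-1224-5p and -0.39 and -0.30 for miR-877-3p and miR-484. With storage without DNase r was 0.58, and 94.6% of the richest group and 30.1% of the poorest were called higher (medians 4.78 and 0.10). There miR-877-3p, though poor in guanine, was called higher by 1.54 (SE 0.19, limma adjusted p = 3.9e-07). When RNA of 96 h without DNase was set against that with DNase, the relation ran the other way, r = -0.32.

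**Figure D5:**
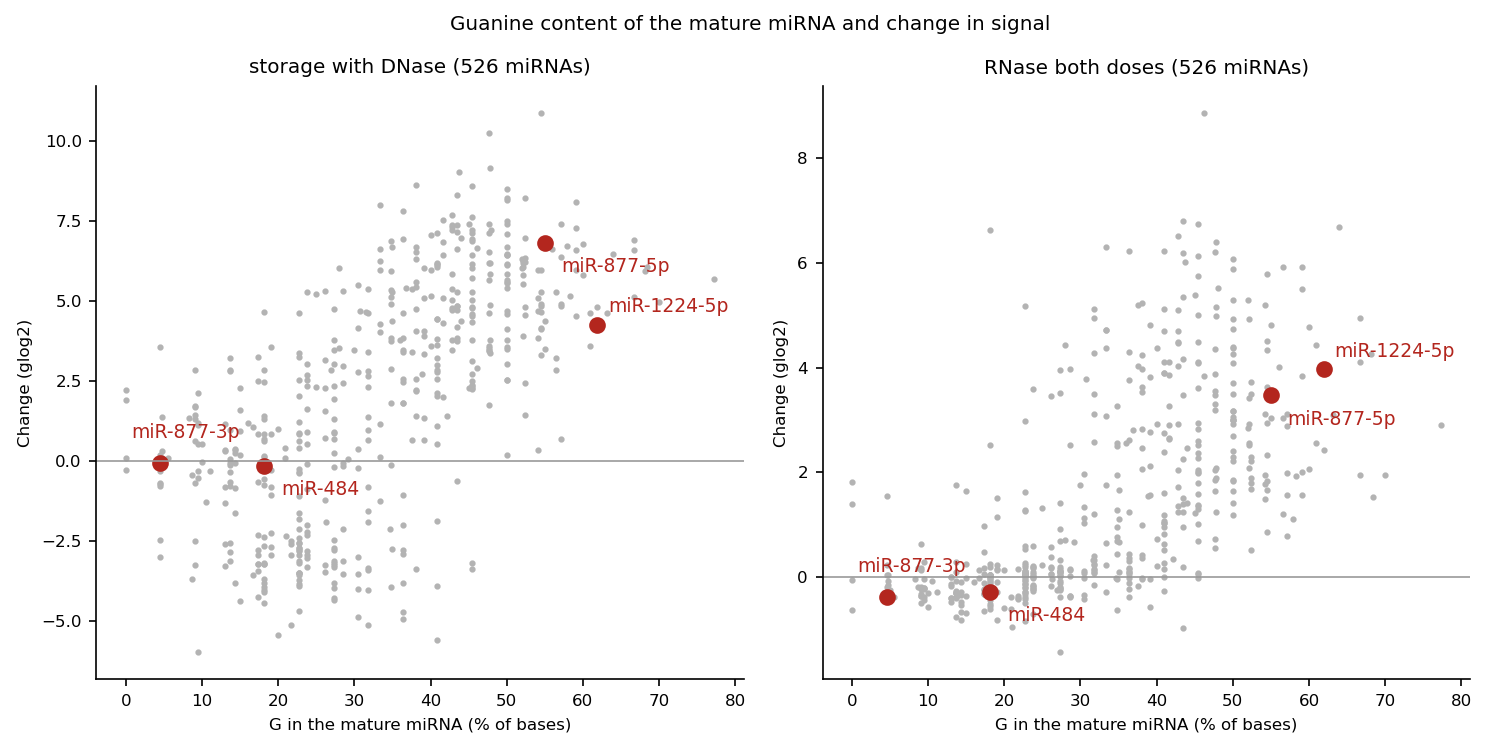
Change on the glog2 scale against the share of guanine in the mature miRNA, in percent of its bases, for 526 tested miRNAs (grey) with the 4 members that have a sequence in red, for storage with DNase on the left and RNase on the right. miR-877-5p was undetected before either, so its height has no firm value. The mirtron 5p arms sit at 55.0% and 61.9% guanine among miRNAs that rose, and miR-877-3p and miR-484 lie close to 0 at 4.55% and 18.2%. On the left, the height of miR-484 sets a single-probe 0 h signal against a 96 h sum of both probes. Fitted singly, these probes changed by -1.02 and -0.31.

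The 3 miRNAs whose pattern over the 24 arrays was most like that of each member were picked by Pearson's r among 630. For miR-877-5p these were miR-8109 (0.992), miR-296-5p (0.978) and miR-1249-3p (0.974), for miR-1224-5p miR-5622-3p (0.986), miR-7042-5p (0.985) and miR-1306-3p (0.978), and for miR-320-3p miR-6965-5p (0.973), miR-3473g (0.967) and miR-7666-3p (0.959). miR-877-3p was most like miR-7047-3p (0.953), miR-207 (0.886) and miR-8095 (0.876), and miR-484 most like miR-6931-3p (0.769), miR-3620-3p (0.714) and miR-149-5p (0.711). No member was among the 3 nearest of another, and the arms of miR-877 correlated with each other at 0.37. The nearest of each member with a RefSeq sequence are printed for comparison with the members above, seeds in capitals.
mmu-miR-8109, for miR-877-5p, chr8:85700935-85700955, plus strand: gCGCCGCGugccggccgcggg
mmu-miR-5622-3p, for miR-1224-5p, chr2:152865105-152865126, plus strand: cUUAGCUGgguagugguggugc
mmu-miR-6965-5p, for miR-320-3p, chr17:24240919-24240942, minus strand: aGAGGGAGgcuauugggcaggaga
mmu-miR-7047-3p, for miR-877-3p, chr7:24987606-24987628, minus strand: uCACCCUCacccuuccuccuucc
mmu-miR-6931-3p, for miR-484, chr11:102999848-102999868, minus strand: cCCAACCUcuucauaccccag
Guanine made up 52.4%, 45.5% and 50% of the first 3 and 0% and 4.76% of the last 2. The other miRNAs nearest to miR-877-5p were not rich in it, with 19.0% in miR-296-5p and 4.55% in miR-1249-3p.

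A list of 10 other mature miRNAs that are made by a noncanonical route or were annotated from other small RNAs was set beside the members, among them miR-702-3p, and miR-451a, which matures without Dicer and is abundant in red blood cells. Of these, 4 were tested. With storage and DNase miR-702-3p rose by 2.83 (SE 0.27, limma adjusted p = 1.12e-08), and miR-451a, miR-1839-3p and miR-1839-5p were lower, by -2.56, -2.55 and -1.91, with a list median of -2.23 against 2.47 over all, where 21.6% of tested miRNAs were lower. With RNase 0 of the 4 were called, against 44.7% higher over all. With depletion 3 of the 4 were lower, against 24.4% over all, miR-451a by -5.59 (SE 0.34, limma adjusted p = 4.01e-11). Of 10 abundant liver miRNAs from ordinary precursors, such as miR-122-5p and let-7a-5p, 10 were lower with storage and DNase (median -3.22, 21.6% lower over all), 8 were lower with depletion (median -3.17, 24.4% lower over all) and 0 were called with RNase (median 0.07, 44.7% higher over all).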

How the data were processed

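The authors scanned 24 one-colour Agilent miRNA arrays with Feature Extraction 10.10.1.1 (per the file headers, array design build mm9). The deposited scanner files give, for each miRNA, a background-subtracted intensity and whether it was detected. The deposited series table gives log2-scale values from the authors' variance stabilizing normalization (vsn). Each array there could be written as the asinh of a scaled and shifted signal of the kind used here (largest residual 1.03e-05).

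The signal was the total gene signal where detected and otherwise the sum of the probe signals, because undetected miRNAs stand at a floor of 0.1 in the files. For a weak detected miRNA the total gene signal can be that of a single probe, while the sum takes in all probes. For miR-484 at 0 h with DNase the mean of 2.32 was that of its brighter probe, without the 1.36 of the other. Detected and undetected values of miR-484, miR-320-3p and miR-877-5p are therefore not on the same scale. Their changes can lie outside those of their single probes. The vsn method was written in Python 3.11.15 (numpy 2.4.6, pandas 2.3.3, scipy 1.17.1), with 7 rounds that kept 90% of miRNAs in each of 5 slices, on all 1881 miRNAs. It differed from the deposited values by 0.0956 (SD). Array scales ran from 1.22 to 1.91 in intact RNA and from 0.306 to 0.478 at 96 h, so normalized changes with storage are smaller than raw ones. miRNAs detected on at least 5 arrays were kept, 631 in all.

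Comparisons used limma 3.58.1 under R 4.3.3, with 1 fit of 8 group means with a variance trend, 11 comparisons, each adjusted by Benjamini-Hochberg over 631 miRNAs, two-sided. The methods name a rank test, which in its exact form cannot go below p = 0.1 with 3 arrays against 3. "At least" folds use the lowest detected signal of each array in the dim group. Arrays with 1 animal number come from 1 animal; after group means were removed, their correlation averaged 0.091 within a mouse and -0.045 between mice. No arrays of a group were identical. Both scripts were tested on simulated data. The number of arrays limits the precision.

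miRNA names come from the files, and sequences from RefSeq. The members and lists were chosen with earlier results of these data known. The miRNAs named are the 7 members, the 3 nearest in pattern to each tested member, those of 2 fixed lists and of 5 fixed lists of cell type markers, and miR-20a and miR-194 from hairpins with GU and AG ends, a list added after the values were seen. Alternatives to the normalization, filter, signal and samples were tried. Figures were drawn with matplotlib 3.10.9.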

Additional observations from a re-analysis of the deposited data

Results flagged for a closer look

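The storage change of miR-877-3p differed between RNA without and with DNase by 1.60 in glog2 units (interaction SE 0.27, limma adjusted p = 0.00307), which flagged it as a difference between groups. It went this way in 3 of 3 mice, and was 1.50 without mouse 7 and 1.42 without mouse 9 but not called in either, where the interaction called 0 of 631 miRNAs.

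miR-320-3p was higher without DNase in every mouse at 0 h (1.46, 0.44 and 1.19 in mice 7, 10 and 9) and lower without DNase in every mouse at 96 h (-0.80, -0.34 and -1.47), a difference of -1.90 between the time points. The test of that difference, the interaction, did not pass (SE 0.67, limma adjusted p = 0.173). The 0 h value of mouse 9 with DNase is that of a single probe, while the others sum both, so its 0 h difference compares unlike signals. Fitted singly, the probes changed by 0.74 and 0.82 at 0 h, and their interactions were -1.74 and -1.57, none of them called.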

How the results depend on the processing

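Of the 7 members, miR-877-5p kept its rise with storage under all 21 alternatives run with DNase (1.30 to 8.04) and all 21 without (2.46 to 9.30), and miR-1224-5p with storage and DNase (2.49 to 6.07) and with RNase at both doses (1.52 to 4.48) under all 19 each. The scaling of the arrays moved the rest, and the cause was not tested. The median change of the tested miRNAs with storage and DNase ran from 0.16 to 3.82, and calls from 381 higher and 136 lower to 479 and 91 with no scaling, 261 and 242 with vsn fitted on the 631 miRNAs, 305 and 213 with quantile normalization, 284 and 199 after dividing by each array's 75th percentile (over all miRNAs), 111 and 88 with normexp, and 656 and 559 of 1881 with no filter. With RNase the split of 282 and 0 became 167 and 214 with vsn on the 631 miRNAs, 186 and 165 with quantile normalization and 50 and 26 with normexp.

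miR-484 turned with no scaling and with spike-in scaling, to 1.47 and 1.08 with storage and DNase and to 1.39 and 1.05 without, and with depletion to -1.60 with the total gene signal as given. Its 0 h signal is mostly that of a single probe and its 96 h signal a sum, so the storage values compare unlike signals. miR-877-3p turned to 1.68 and 1.25 with storage and DNase, and to -0.0035 without DNase with the 75th percentile over all miRNAs. With storage without DNase miR-320-3p turned to -0.36 with that percentile, -0.025 with normexp, -0.35 with quantile normalization and -0.35 with vsn on the 631 miRNAs. Its change with RNase turned to -0.27 with the signal as given and -0.16 with vsn on the 631 miRNAs at both doses, and to -0.31 and -0.10 at 0.67 U. Calls were lost by miR-1224-5p with storage without DNase (0.75 with the 75th percentile over all miRNAs, 1.01 with vsn on the 631 miRNAs), by miR-320-3p with storage and DNase (0.51 with normexp) and by miR-877-3p when DNase was left out at 96 h (0.39 with normexp, and from 1.32 to 1.69 on leaving out 1 mouse, not called without mouse 7).

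Counts of called members here take in both directions. Over 16 settings, 111 to 479 of the 631 miRNAs were called higher with storage and DNase and 88 to 242 lower. Without DNase these were 90 to 473 and 94 to 233. The members called with storage and DNase, 3 in the report, were 5 with no filter, no scaling, spike-in scaling, quantile normalization, the 75th percentile over all miRNAs or vsn on the 631 miRNAs, and without DNase 2 in place of 4 with that percentile, normexp or vsn on the 631 miRNAs. The counts of 5 differ in make-up. miR-484 was called higher by 1.47 with no scaling and lower by -2.01 with vsn on the 631 miRNAs. With no filter the added calls were the undetected miR-320-5p (-1.16) and miR-1224-3p (-1.21), both lower. For DNase left out at 96 h the members called were 1 in place of 2 with no scaling, spike-in scaling or a fit of those groups alone, and 0 to 2 without 1 mouse. Of the 631 miRNAs, 5 to 80 were called higher there and 0 to 91 lower over the 16 settings. With depletion the members called were 4, 3 and 2 in place of 1 with the 75th percentile of detected miRNAs, quantile normalization and vsn on the 631 miRNAs. Of the 631 miRNAs, 19 to 252 were called higher with depletion and 60 to 171 lower over the 16 settings. With RNase the members called were 1 with normexp or the signal as given at either dose or both, 5 with quantile normalization at 0.67 U and at both doses, and at 0.026 U 1 with those groups alone, 4 with vsn on the 631 miRNAs and 1 to 3 without 1 mouse. Of the 631 miRNAs, 50 to 294 were called higher at both doses and 0 to 214 lower over the 16 settings. At 0.026 U alone these were 46 to 279 and 0 to 171, and at 0.67 U alone 54 to 302 and 0 to 242. For the interaction the members called were 2 in place of 1 with the 75th percentile over all miRNAs, the signal as given or vsn on the 631 miRNAs, and 0 to 2 without 1 mouse. Of the 631 miRNAs, the interaction called 0 to 30 higher and 0 to 45 lower over the 16 settings. The signal as given used the scaling of the report's values, because its own vsn fit failed. A replicate block for mouse changed no member's call, with 4.25 for miR-1224-5p with storage and DNase (SE 0.58, limma adjusted p = 1.83e-06). Signals near the lowest detected one, 0.672 to 1.62 intensity units on the arrays, have no firm level, which holds for miR-877-5p and miR-320-3p in depleted RNA.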

Other observations

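RefSeq hairpins that begin with GU and end with AG were picked by these letters alone, after the values of the members had been seen, and include hairpins that are no mirtrons, such as those of miR-20a and miR-194. Apart from the members, 15 of their 5p arms and 8 of their 3p arms were among the tested miRNAs. With storage and DNase 12 of the 15 5p arms were called higher and 2 lower (median 5.14), where 65.5% of all tested 5p arms were higher (median 3.41). The 2 that fell were miR-20a-5p and miR-194-5p. Of the 8 3p arms 2 were higher and 0 lower (median 0.55), where 43.0% of all tested 3p arms were higher (median 0.36). With RNase at both doses 11 of the 15 5p arms were higher (median 2.06), where 51.3% of all tested 5p arms were higher (median 1.35), and 0 of the 8 3p arms (median -0.19), where 25.4% of all tested 3p arms were higher (median 0.02).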
